A study of Mus musculus with 2 samples.

Results

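Hox genes encode transcription factors that bind DNA through a homeodomain, and in the mouse they lie in 4 clusters, HoxA to HoxD. Within a cluster the genes are numbered by paralog group from 1, at the 3′ end, to 13, at the 5′ end. Genes of 1 paralog group in different clusters descend from the same ancestral gene. In the embryo, low-numbered (anterior) genes are expressed earlier and further towards the head than high-numbered (posterior) genes, and cells of the adult keep a Hox pattern typical of their position in the body. TALE homeodomain proteins, such as those of the Meis family, bind DNA together with Hox proteins. Polycomb complexes keep Hox clusters silent, Trithorax complexes keep them active, and retinoic acid induces genes at the 3′ end. The members were all genes of the deposited count table with a symbol made of Hox, a cluster letter from a to d and a paralog number, which gave 39 of 49492 genes. They were compared by cluster and by paralog position.

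The cells were wild-type (WT) primary basal cells (lin- CD24+ CD29hi) from adult female mice, isolated by FACS and kept in a 3D matrix gel for 11 to 14 days. The ctrl library came from cells with no treatment, and the M2 library from cells co-cultured with macrophages derived from bone marrow and polarised to an M2-like state with Il-4 and Il-13. The macrophages sat in an insert above a porous membrane, apart from the basal cells. Each group held 1 library, so there was no replicate check, and each test compared the 2 libraries and not the conditions. By FACS, the paper found mostly luminal cells in such cultures, with a larger share of basal cells in M2 than in ctrl. The Hox reads are thus not those of basal cells alone. The comparison asks which Hox genes these cultures, grown from basal cells, expressed and how the libraries differed in them.

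The ctrl library held 26912610 reads in annotated genes and the M2 library held 29413844. Levels are given as counts per scaled library size (CPM) and, between genes, as CPM per kilobase of exon. All 12 basal epithelial markers were detected in both libraries, with 9356 CPM in sum in ctrl and 9603 CPM in M2, and they included Krt14 (81991 and 68968 reads) and Krt5 (56383 and 83619 reads). The 13 luminal markers were also all detected, with 4233 and 3391 CPM in sum. Of 11 macrophage markers, 4 (Adgre1, Fcer1g, Tyrobp and Ptprc) had 0 reads in both libraries, and the list summed to 10.1 and 11.6 CPM. The 12 fibroblast markers summed to 3334 and 2653 CPM, most of it Postn (72824 and 71795 reads). The 7 endothelial markers had 13.3 and 4.34 CPM and the 6 adipocyte markers 9.72 and 0.659 CPM. In such bulk libraries, fewer cells of a type and less RNA per cell cannot be told apart.

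The homeobox is the exonic stretch of 180 bases that encodes the homeodomain, and it lay in exon 2 of each of the genes shown here. The sequences below were read on the sense strand from GENCODE M21 transcripts on GRCm38. Capitals mark the 18 bases that encode the most conserved stretch of the DNA-recognising helix. Hoxb2 is shown as a member of the group that carried nearly all Hox reads, and Hoxb9 and Hoxc13 because they differed between the libraries.
Hoxb2 homeobox (chr11:96352985-96353164, + strand): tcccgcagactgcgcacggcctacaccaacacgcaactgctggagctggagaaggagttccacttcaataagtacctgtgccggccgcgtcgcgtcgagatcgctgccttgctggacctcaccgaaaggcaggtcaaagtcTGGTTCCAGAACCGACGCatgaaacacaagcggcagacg
Hoxb9 homeobox (chr11:96274659-96274838, + strand): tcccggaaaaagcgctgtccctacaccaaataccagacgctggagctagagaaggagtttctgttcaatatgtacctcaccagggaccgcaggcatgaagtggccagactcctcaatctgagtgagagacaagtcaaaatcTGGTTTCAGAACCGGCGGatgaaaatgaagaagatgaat
Hoxc13 homeobox (chr15:102927210-102927389, + strand): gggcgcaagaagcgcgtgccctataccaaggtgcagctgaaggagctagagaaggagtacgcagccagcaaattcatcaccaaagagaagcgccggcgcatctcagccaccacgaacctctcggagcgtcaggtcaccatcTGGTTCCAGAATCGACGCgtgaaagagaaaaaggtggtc

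Because paralogs are alike in the homeobox, reads could in principle be exchanged between them. Over these 180 bases Hoxb2 was 74.4% identical to Hoxa2, which had 0 reads in both libraries. Hoxb3 was 93.9% identical to Hoxa3 (0 reads in ctrl, 1 in M2) and 92.8% to Hoxd3 (2 and 0 reads). Its longest run shared with Hoxd3 over the whole coding sequence was 47 bases. Hoxb9 was 84.4% identical to Hoxd9, 83.9% to Hoxc9 and 81.7% to Hoxa9, with shared runs in the coding sequence of at most 40 bases. Hoxc13 was 77.2% identical to Hoxa13.

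Hox expression in both libraries was that of the 3′ part of the HoxB cluster. Hoxb2, Hoxb3 and Hoxb4 together had 1554 reads in ctrl and 1502 in M2, which made up 92.5% of the Hox reads of ctrl (91.1 to 93.7, 95% Wilson interval) and 94.3% of those of M2 (93.1 to 95.4). The other 36 members had 126 and 90 reads in sum. Their highest level was 0.369 CPM per kb in ctrl, for Hoxc4, and 0.351 CPM per kb in M2, for Hoxb9, and no level of the trio was below 2.71 CPM per kb. At least 1 read was found for 26 members in ctrl and 21 in M2, and 11 members had 0 reads in both libraries. All Hox genes together took 0.00624% of the reads in ctrl and 0.00541% in M2.

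Hoxb3 (chromosome 11, 96323326 to 96347930, + strand), a gene of hindbrain and pharyngeal patterning in the embryo, was the highest member. It had 939 reads in ctrl and 762 in M2, or 8.04 CPM per kb (95% Poisson interval 7.54 to 8.57) and 6.22 CPM per kb (5.79 to 6.68). Of the genes tested, 67.2% had a lower level than Hoxb3 in ctrl and 61.6% in M2, so it stood above the median gene, which had 3.74 CPM per kb in both. Hoxb2 (chromosome 11, 96350525 to 96354012), also a hindbrain patterning gene, had 424 and 490 reads, or 4.43 CPM per kb (4.01 to 4.87) and 4.87 CPM per kb (4.45 to 5.33). Hoxb4 (chromosome 11, 96318267 to 96321638), known for its part in the self-renewal of blood stem cells, had 191 and 250 reads, or 2.71 CPM per kb (2.34 to 3.12) and 3.38 CPM per kb (2.97 to 3.83). The order Hoxb3, Hoxb2, Hoxb4 held in both libraries, with counting intervals that did not overlap between neighbours.

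These levels carry an uncertainty of counting. The antisense gene Hoxb3os runs against Hoxb3 and Hoxb2 on the opposite strand, and it shares exon bases with both. The shared part was 52.9% of the exon bases of Hoxb3, 27.3% of those of Hoxb2 and 76.2% of those of Hoxb3os. Hoxb3os itself had 880 and 765 reads, or 7.63 and 6.32 CPM per kb, close to the level of Hoxb3. Whether strand was used in counting is not given in the sources used here. Of 52 listed genes that lay wholly inside exons of an expressed gene of the opposite strand, 51 had reads, at a median of 0.961 times the level of that gene (quartiles 0.396 and 1.75). Of 128 such genes on the same strand, 126 had reads, at a median of 0.254 times (0.0649 and 1.35). How reads were divided between Hoxb3, Hoxb2 and Hoxb3os where they overlap was thus not settled. Since nearly all of these contained genes had reads, leaving out shared reads was not the general rule of counting. Hoxb4 shares no exon base with another listed gene.

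**Figure D1:**
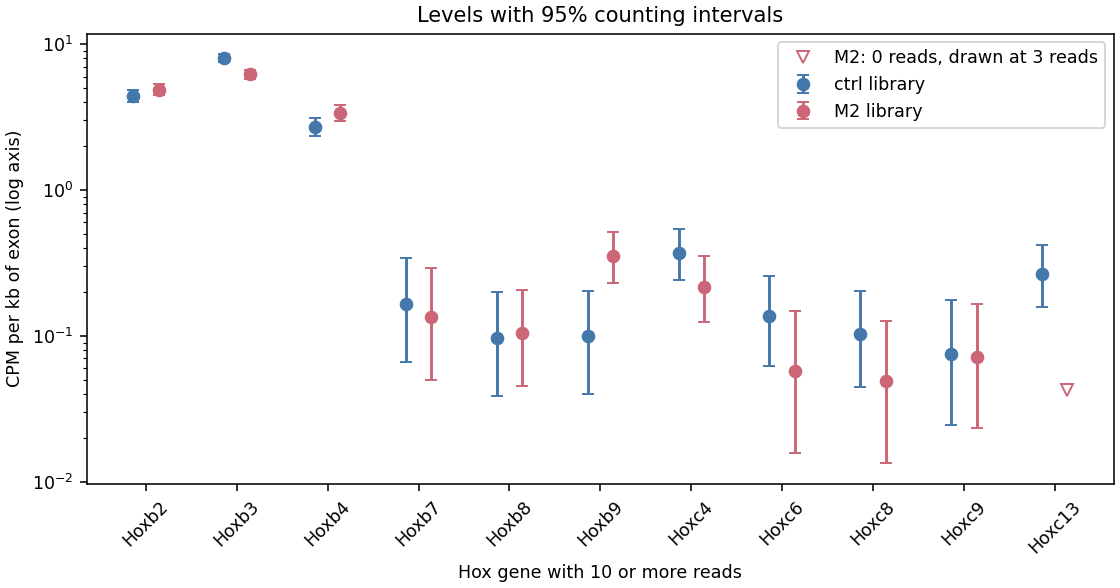
Level of the 11 Hox genes with 10 or more reads in sum, as CPM per kb of exon on a log axis, in the ctrl library (blue) and the M2 library (red). Bars are 95% Poisson intervals and cover counting error only. The 3 genes on the left lie above 2.7 CPM per kb, the other 8 lie below 0.4, and Hoxc13 in M2, at 0 reads, is drawn at the level of 3 reads.

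Expression ended sharply on both sides of this trio. On the 5′ side, 12.1 kb separate Hoxb4 from Hoxb5, and the 4 genes from Hoxb5 to Hoxb8 had 18 and 19 reads in sum. Their levels ran from 0.0261 to 0.165 CPM per kb in ctrl and from 0.0177 to 0.135 CPM per kb in M2. On the 3′ side, 11.7 kb separate Hoxb2 from Hoxb1, which had 1 read in ctrl and 0 in M2. Hoxb13, at the 5′ end, had 0 reads in both. The microRNA gene Mir10a lies 0.992 kb from Hoxb4 and is listed with 6 reads in each library. Its mature product miR-10a-5p (chr11:96317186-96317208, + strand, RefSeq, GRCm38.p6) is shown because its gene sits at this border, with the seed (bases 2 to 8) in capitals.
miR-10a-5p: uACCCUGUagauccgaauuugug
Reads of an mRNA library over Mir10a come from longer transcripts and do not measure the mature microRNA. Gm11536, an antisense gene inside Hoxb3, had 25 and 20 reads, and it was named after its values were seen.

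**Figure D2:**
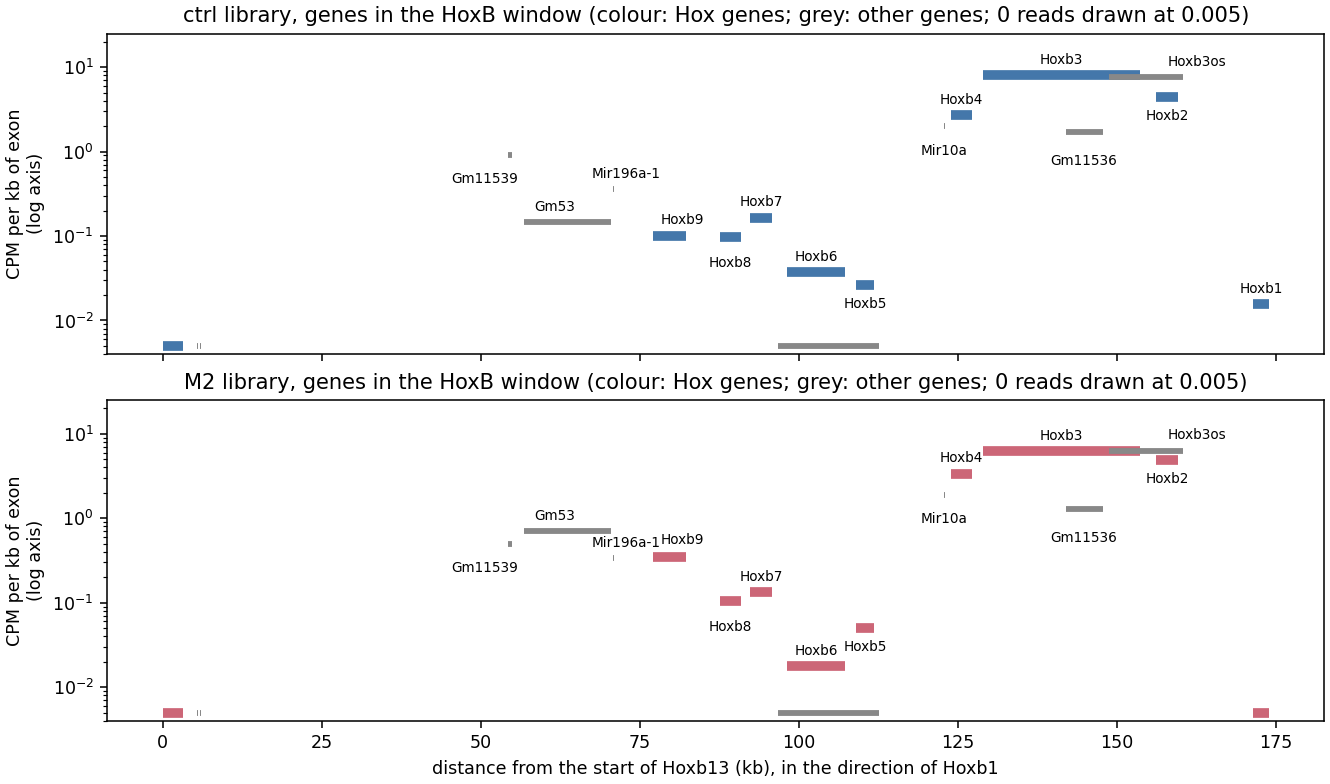
Genes of the HoxB window (174 kb) by distance from the start of Hoxb13 (x axis, kb) and level in CPM per kb of exon (y axis, log) in ctrl (top) and M2 (bottom). Bars span each gene, coloured for Hox genes and grey for other genes, and genes with 0 reads are drawn at 0.005. Hoxb4, Hoxb3 and Hoxb2 stand together above 2.7 CPM per kb, with Hoxb5 to Hoxb8 on one side and Hoxb1 on the other below 0.2.

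To compare the libraries, an exact binomial test (two-sided) was applied to the reads of each gene that had 10 or more in sum, with Benjamini-Hochberg adjustment over all 19233 genes tested. Genes counted as called where the adjusted p was below 0.05 and the libraries differed 2-fold or more. Over all genes tested, 14.7% were called, 8.16% higher and 6.55% lower in M2. Of the 39 Hox genes, 11 could be tested, and of these 1 was called higher (Hoxb9), 1 was called lower (Hoxc13) and 9 were not called. By the exact test of edgeR with the biological coefficient of variation taken as 0.2, 1 of the 11 was called, beside 8.61% of all genes, and with 0.4 it was 0, beside 1.59%. Hoxc13 passed the read filter through the ctrl library alone, where it was high. Hoxb9, with 7 reads in ctrl and 26 in M2, passed it through the M2 library, where it was high. Both calls thus came from genes let in by their high library, and these counts and the median below support nothing about the Hox genes as a group. Differences are given as the log2 ratio of scaled reads, M2 over ctrl. Its median over the 11 genes was -0.26, also with Hoxc13 at the bound given below, and that of all genes tested was -0.0032, with quartiles at -0.32 and 0.35. The other 28 members had at most 6 reads in a library, with 39 reads in sum in ctrl and 21 in M2, and differences in them were not detectable at this depth.

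The markers of cell types moved in the same test as follows, where 14.7% of all genes tested were called. Of 12 basal markers 1 was called higher and 2 lower (Krt17 higher, Oxtr and Lgr5 lower), and of 13 luminal markers 0 were called higher and 7 lower. Of 10 fibroblast markers tested, 1 was called higher and 4 lower, of 5 endothelial markers 1 and 3, and of 2 adipocyte markers 0 and 2. Of 4 macrophage markers tested, 2 were called higher, Cd163 (2 and 30 reads) and Aif1 (3 and 40 reads), and 0 lower. Only these 4 of the 11 listed passed the read filter, and Cd163 and Aif1 passed it through the M2 library, where they were high. The macrophage counts thus support nothing about that list as a whole. The part of such cells in the Hox differences was not tested.

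Hoxb9 (chromosome 11, 96271457 to 96276595, + strand) rose in the M2 library. In mice it acts together with its paralogs Hoxa9 and Hoxd9 in the development of the mammary gland around pregnancy. It had 7 reads in ctrl and 26 in M2, or 0.0990 CPM per kb (95% Poisson interval 0.0398 to 0.204) and 0.351 CPM per kb (0.229 to 0.514). The log2 ratio was 1.69 (95% interval 0.58 to 3.27), with an adjusted p of 0.00351 by the exact binomial test, and the intervals of the levels did not overlap. Even in M2 its level was higher than that of only 15.0% of the genes tested. Without its M2 reads it would not have passed the filter of 10 reads in sum. The call rests on 33 reads, and it was lost when genes were assumed to vary between cultures: with a coefficient of variation of 0.2, the adjusted p was 0.134 by the exact test of edgeR, and with 0.4 it was 1.

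The paralogs of Hoxb9 gave no call. Hoxc9 had 5 reads in each library, Hoxa9 had 3 and 0 and Hoxd9 had 2 and 0. Paralog group 9 as a whole had 17 and 31 reads, a log2 ratio of 0.76 (95% interval -0.10 to 1.74), and without Hoxb9 it had 10 and 5 reads, with a difference of -0.94 (-2.97 to 0.61). The Hoxb9 neighbours Hoxb8 (7 and 8 reads) and Hoxb7 (7 and 6 reads) had log2 ratios of 0.10 (-1.53 to 1.82) and -0.26 (-2.14 to 1.51), with intervals that overlapped that of Hoxb9. On the other side, 6.59 kb from Hoxb9, the noncoding RNA gene Gm53 (chromosome 11, 96251105 to 96264868) was called higher (16 reads in ctrl, 81 in M2), with a log2 ratio of 2.20 (1.49 to 3.14). Gm53 was named after its values were seen. Between Hoxb13 and Hoxb9, Gm53 was the gene with the most reads in the M2 library.

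Hoxc13 (chromosome 15, 102921103 to 102928814, + strand), a posterior gene known for hair and nail formation and for driving hair keratin genes, fell in the M2 library. It had 18 reads in ctrl, or 0.655 CPM and 0.266 CPM per kb (0.158 to 0.421), and 0 reads in M2, which allows up to 3 reads or 0.104 CPM. Against that floor, with the ctrl reads taken as they are, it was at least 6.29-fold lower in M2, a log2 ratio of -2.65. With the counting error of both libraries, the limit of the 95% interval nearest to 0 was -2.21. The adjusted p was 8.43e-06 by the exact binomial test, and 0.0907 by the exact test of edgeR at an assumed coefficient of variation of 0.4, where the call was lost. In ctrl it was the only gene of its paralog group with reads, since Hoxa13, Hoxb13 and Hoxd13 had 0 reads in both libraries. Markers of squamous differentiation, a keratinising state of epithelium, fell as well. Of 10 markers, 9 were tested and all 9 were called lower, beside 6.55% of all genes tested. The 10 markers had 274 CPM in sum in ctrl and 64.9 CPM in M2. They included the keratins Krt10 (1228 and 75 reads) and Krt1 (273 and 7 reads). Their part in the Hoxc13 difference was not tested.

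**Figure D3:**
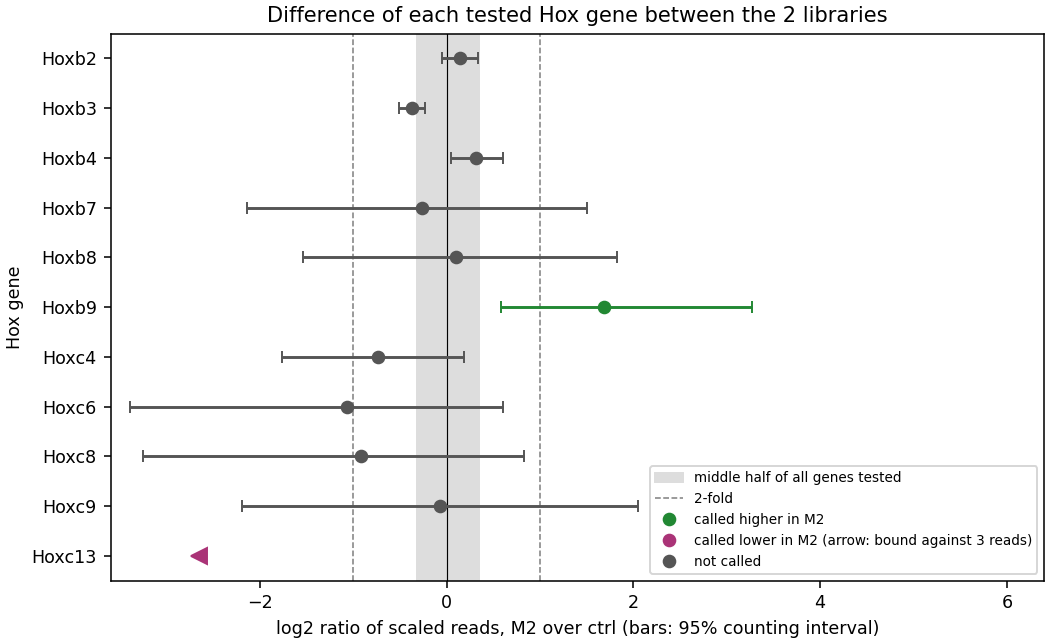
Log2 ratio of scaled reads, M2 over ctrl, of the 11 tested Hox genes, with 95% counting intervals. The grey band spans the quartiles of all genes tested (-0.32 to 0.35), and dashed lines mark 2-fold. Hoxb9 lies above 2-fold at 1.69, Hoxc13 is drawn as an arrow at its bound of -2.65, and Hoxb2, Hoxb3 and Hoxb4 have short intervals within 2-fold.

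Within the trio the differences were small. Hoxb3 had a log2 ratio of -0.37 (95% interval -0.51 to -0.23), with an adjusted p of 5.21e-07 by the exact binomial test, and was not called because the difference was under 2-fold. Hoxb4 had a difference of 0.32 (0.04 to 0.60) with an adjusted p of 0.0425, and Hoxb2 had 0.14 (-0.05 to 0.33) with an adjusted p of 0.219, by the same exact test. Only counting error enters these p-values: with a coefficient of variation of 0.1, the adjusted p by the exact test of edgeR was 0.255 for Hoxb3 and 0.455 for Hoxb4, and scaling by total reads gave Hoxb4 0.105 by the exact binomial test. At these read numbers a 2-fold difference lies outside all 3 intervals. The reads of Hoxb3 were 4.92 times those of Hoxb4 in ctrl and 3.05 times in M2, and 2.21 and 1.56 times those of Hoxb2. The ratio of Hoxb2 to Hoxb4 was 2.22 in ctrl and 1.96 in M2. These ratios need no library scaling and are given as a description. The antisense gene Hoxb3os, which shares exon bases with Hoxb3, had a log2 ratio of -0.27 (-0.41 to -0.13).

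By cluster, the HoxB genes had 57.5 and 53.7 CPM in sum, a log2 ratio of -0.10 (95% interval -0.20 to 0.0024). Hoxb3 set this sum: without it, HoxB differed by 0.22. The HoxC genes had 77 and 32 reads, a log2 ratio of -1.31 (-1.98 to -0.72), and their share of Hox reads was 4.58% (Wilson interval 3.68 to 5.69) and 2.01% (1.43 to 2.82). Hoxc13 gave 18 of these reads, and without it the HoxC sum was 59 and 32 reads, a difference of -0.93 (-1.62 to -0.31). The counting interval of HoxC lay below 0 with and without its called gene, and those of HoxA, HoxB and HoxD included 0. HoxD, however, had a log2 ratio of -1.39 on only 9 and 3 reads, so these intervals do not set HoxC apart from it. The sum of the 36 members other than Hoxb2, Hoxb3 and Hoxb4, which includes HoxC, also lay below 0, at -0.55 (-0.96 to -0.15). As sums over chosen members, these values carry no test.

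No other single HoxC gene was called. Hoxc4 (chromosome 15, 103018934 to 103036852), the member with the most reads outside HoxB, had 26 reads in ctrl and 16 in M2, or 0.369 CPM per kb (0.241 to 0.540) and 0.216 CPM per kb (0.124 to 0.351). Its log2 ratio was -0.74 (-1.77 to 0.18), with an adjusted p of 0.149 by the exact binomial test. Hoxc6 had 9 and 4 reads, with a difference of -1.07 (-3.39 to 0.60), and Hoxc8, which specifies thoracic identity, had 8 and 4 reads, with a difference of -0.92 (-3.25 to 0.83). Hoxc5 had 6 and 3 reads, Hoxc10 had 5 and 0, and Hoxc11 and Hoxc12 had 0 in both. All 7 HoxC genes with reads had a lower CPM in M2, including Hoxc9, whose reads were equal in number and whose difference was -0.07 (-2.19 to 2.05). Of all 28 Hox genes with reads, 19 had a lower CPM in M2 and 9 a higher one. Lower CPM was found in 5 of 8 such genes in HoxA, 4 of 9 in HoxB and 3 of 4 in HoxD. The share over all genes was not counted, so the 7 HoxC genes are given as a description.

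HoxA and HoxD were nearly silent in both libraries. The 11 HoxA genes had 14 and 10 reads in sum, a log2 ratio of -0.52 (-1.89 to 0.72), and none had more than 4 reads in a library. The 9 HoxD genes had 9 and 3 reads, a difference of -1.39 (-4.18 to 0.35), and the 4 genes from Hoxd10 to Hoxd13 had 0 in both. No difference in either cluster was detectable at this depth.

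By position, anterior genes (paralog groups 1 to 3) held 81.4% of Hox reads in ctrl and 78.8% in M2, central genes (4 to 8) held 16.0% and 19.2%, and posterior genes (9 to 13) held 2.62% and 2.01%. The anterior sum had a log2 ratio of -0.19 (-0.30 to -0.08), which came from Hoxb3, since it was 0.13 without that gene. The central sum differed by 0.11 (-0.13 to 0.35). Without HoxB, a split that was not planned, the central genes had 60 and 36 reads, a difference of -0.79 (-1.44 to -0.19). Of these reads, 26 and 16 were of Hoxc4, which also counts in the HoxC sum. The posterior sum of 44 and 32 reads differed by -0.52 (-1.23 to 0.16), with Hoxb9 and Hoxc13 in opposite directions. Position along the cluster thus gave no single direction in these libraries.

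Hox proteins act with cofactors, and the cofactor genes were expressed in both libraries. All 9 TALE homeobox genes were tested, of which 0 were called higher and 1 lower, with a median log2 ratio of -0.04. The share called over all genes tested was 14.7%. Pbx2 had 1399 and 1308 reads, a log2 ratio of -0.17, and Meis1 had 720 and 735 reads, a log2 ratio of -0.04. Pknox2 fell from 369 to 107 reads, a log2 ratio of -1.85 (-2.18 to -1.54) with an adjusted p of 1.09e-36 by the exact binomial test. None of the 9 was at or below 3 reads in a library.

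The genes that keep Hox clusters silent or active had few calls, and their list medians lay within the quartiles of all genes tested. Single members differed more, mostly under 2-fold. Of 28 Polycomb genes tested, 1 was called higher and 0 lower, with a median of -0.06, beside 14.7% of all genes called. The call was Phf19, a Polycomb-like subunit that binds methylated histone tails, with 44 and 140 reads and a difference of 1.58 (1.10 to 2.12). Log2 ratios in this list ran from -0.56 to 1.58. The Polycomb genes with most reads were Rbbp7 (4786 and 5428, log2 ratio 0.11), Phc3 (4748 and 3398, -0.55) and Aebp2 (3213 and 2747, -0.30). Of 18 Trithorax and H3K27 demethylase genes tested, 0 were called in either direction by the exact binomial test, with a median of -0.16. Their log2 ratios ran from -0.59 to 0.49, so none reached 2-fold. Among them the elongation factor gene Aff4 (11892 and 11230 reads, log2 ratio -0.15), the methyltransferase gene Kmt2d (6840 and 4776, -0.59) and Psip1 (4451 and 6545, 0.49) had the most reads.

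Genes of retinoic acid metabolism and response moved in both directions. Of 18 such genes, 15 were tested, 2 were called higher and 2 lower, with a median of -0.24, beside 14.7% of all genes called. Cyp26a1, which degrades retinoic acid and is itself induced by it, rose from 21 to 156 reads, a log2 ratio of 2.77 (2.16 to 3.56), and Rarb, a receptor gene that is also a retinoic acid target, rose from 10 to 43 reads (1.93, 1.02 to 3.19). Cyp26b1, another degrading enzyme, fell from 272 to 38 reads (-2.88, -3.44 to -2.42), and Aldh1a1, a synthesising enzyme, fell from 1541 to 292 reads (-2.47, -2.65 to -2.29). Aldh1a3, the synthesising enzyme with far more reads, had 28809 and 37577 (0.31). Rdh10, which makes the precursor retinal, was also among the 3 genes with most reads, with 3455 and 5760 (0.67, 0.61 to 0.73). It was not called because the difference was under 2-fold. At an assumed coefficient of variation of 0.4, 0 genes of the cofactor, Polycomb and retinoic acid lists were called by the exact test of edgeR. Of all genes tested, 1.59% were called at that setting. Hoxb1, at the 3′ end of its cluster, had 1 read in ctrl and 0 in M2. The 5 Cdx and Evx genes, which act on or next to Hox clusters in the embryo, had 0 reads in both libraries.

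**Figure D4:**
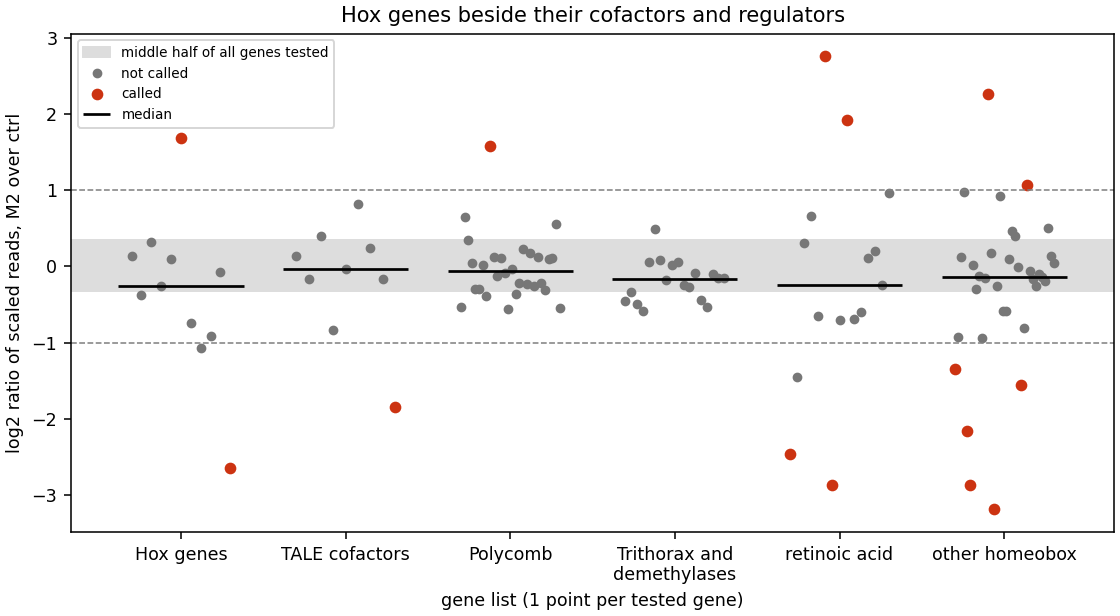
Log2 ratio of scaled reads, M2 over ctrl, of the tested genes of 6 lists, 1 point a gene, with called genes in red, list medians as black lines and the quartiles of all genes tested as a grey band. The medians run from -0.26 for the Hox genes to -0.04 for the TALE cofactors, all inside the band, and Hoxc13 is drawn at its bound.

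In the list of noncoding RNAs of the clusters, which does not hold Gm53, few reads lay outside Hoxb3os. Of 17 such genes in the table, 9 had 0 reads in both libraries, among them Hotair and Hottip, and 3 were tested. Hoxb3os took nearly all of their reads, but 76.2% of its exon bases are shared with Hoxb3 and Hoxb2. Reads of those genes may thus be counted in it. Hotairm1, known as a myeloid transcript induced by retinoic acid, had 4 and 16 reads and was called higher, with a log2 ratio of 1.70 (0.30 to 3.97) and an adjusted p of 0.0249 by the exact binomial test. The call did not hold at an assumed coefficient of variation of 0.2. Of its exon bases, 43.1% are shared with other genes. Gm27867, a listed RNA gene of 125 bases wholly within exon bases of Hotairm1, held 3 and 15 reads (a gene picked with its values in view), so most Hotairm1 reads may lie in that stretch. In the HoxC window, the 7 listed genes that are not Hox genes had 0 reads in both libraries.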

How the data were processed

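Basal cells cultured alone (ctrl) or with M2-like macrophages (M2) were profiled by RNA sequencing, with 1 library a group, and groups follow the labels. Although a microarray is named in the series text, the deposited values are raw sequencing counts per gene that the authors did not normalize. The labels name a column kit for RNA and a SMARTER library kit, and the study's methods name RNAiso Plus and a HiSeq X sequencer. Builds GRCm38 and mm10 are named in the submitters' processing notes, and all 39 Hox genes have the start and end of the GENCODE M21 gene of that name. The aligner, the counting tool and the use of strand are not given in the sources used here.

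The trimmed mean of M values (TMM; edgeR 4.0.16, R 4.3.3) gave scaling factors of 1.02 and 0.980. Genes with 10 or more reads in sum (19233) were tested by a two-sided exact binomial test (scipy 1.17.1) with Benjamini-Hochberg adjustment, and called at an adjusted p under 0.05 and 2-fold. Log2 ratios use a pseudocount of 1 read. Intervals are 95% Clopper-Pearson for folds, Poisson for levels and Wilson for shares. As molecular identifiers are not mentioned, intervals and the floor of 3 reads (0.109 CPM in ctrl, 0.104 CPM in M2) cover counting error only. A quasi-likelihood test needs replicates and could not be fitted. The exact test of edgeR was run with assumed coefficients of variation of 0.1, 0.2 and 0.4. The script was tested on simulated data.

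The members, gene lists and tests were chosen with earlier results of these data known. All Hox genes entered the counts, and of each related list the called genes and the 3 with most reads may be named. The read ratios within the HoxB trio, the count of genes inside opposite-strand exons and the naming of genes outside this rule were added after the values were seen. Some sums over part of a cluster or position, such as central genes without HoxB, were not planned. In 26 cases the gene name had become a date, and such genes stayed in the tests unnamed. Wnt3A and TNF-α cultures were not analysed here, and some genes and sequences are not reported here.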

Additional observations from a re-analysis of the deposited data

How the results depend on the processing

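No paired analysis was possible because neither group has a replicate, which is also why no replicate could be left out and DESeq2 was not run. Under 13 alternatives to the Hox calls, the 1 call higher in M2 (Hoxb9) became 0 with a filter of 1 CPM in both libraries, which left 3 Hox genes to test, in the exact test of edgeR at an assumed coefficient of variation of 0.2 (8.61% of all genes called) or 0.4 (1.59%), at a 4-fold threshold, and when the whole 95% interval had to lie beyond 2-fold. The 1 call lower (Hoxc13) became 0 with the 1 CPM filter, where Hoxc13 is not tested, and at a coefficient of variation of 0.4. Other scalings, pseudocounts, no filter and removal of a gene length trend left both counts at 1. Of the log2 differences of summed reads, leaving out the member with most reads gave 0.22 for HoxB (Hoxb3 left out), 0.13 for anterior genes (Hoxb3), -0.57 for central genes (Hoxb4) and -2.51 for posterior genes (Hoxb9). The depth limits calls in the members under 10 reads, and the Hoxb9 and Hoxc13 calls rest on 33 and 18 reads.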

Other observations

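Other homeobox genes outside the Hox clusters were expressed at higher levels than most Hox genes. Of 58 such genes, 34 were tested, 10 had 0 reads in both libraries, 2 were called higher in M2 and 5 were called lower, with a median log2 ratio of -0.13, where 14.7% of all genes tested were called. The Iroquois gene Irx2 had 10263 reads in ctrl and 8750 in M2, Adnp had 5660 and 6513, and Irx1 had 4878 and 5189, and none of these 3 was called. Irx2 stood at 114 CPM per kb in ctrl, where Hoxb3 stood at 8.04. Barx2, a homeobox gene of epithelial and muscle cells, fell from 1638 to 187 reads, a log2 ratio of -3.19 (95% interval -3.43 to -2.98). Dlx5, a Distal-less gene of skeletal and craniofacial development, fell from 399 to 93 reads (-2.16, -2.51 to -1.84), and its neighbour Dlx6 had 13 and 1 reads (interval -9.18 to -1.03). Msx1 (33 and 13 reads) and Pou3f1 (41 and 14 reads), the latter a POU gene of keratinocytes and glia, were also called lower, at -1.35 and -1.55. Six4 rose from 28 to 145 reads (2.26, 1.71 to 2.94), and Zeb2, a zinc finger homeobox repressor known from epithelial to mesenchymal transition, rose from 83 to 185 reads (1.08, 0.71 to 1.48). At an assumed coefficient of variation of 0.2, the list had 3 calls, where 8.61% of all genes were called, and at 0.4 it had 1, where 1.59% were called.

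Genes that flank the clusters were tested in the same way, with the same 14.7% of all genes called. Of 6 flanking genes of HoxB tested, Ttll6, a tubulin-modifying enzyme gene, fell from 78 to 4 reads (log2 ratio -4.05, 95% interval -6.27 to -2.94), and Skap1, an adaptor gene of T cells, had 3 and 22 reads, with an interval of 1.07 to 5.19. Of 5 flanking genes of HoxA, Snx10 rose from 250 to 617 reads (1.23, 1.02 to 1.45). None of the 6 flanking genes of HoxC and the 7 of HoxD that were tested was called by the exact binomial test. At an assumed coefficient of variation of 0.4, 1 of the flanking genes of HoxB and 0 of those of HoxA were called. That setting called 1.59% of all genes tested.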
